A study of Homo sapiens with 2 samples.

Results

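Squamous epithelia such as those of the tongue and skin are built by a small set of transcription factors. TP63 keeps the basal layer in its lineage and is joined on many of the same enhancers by SOX2 and KLF5 in squamous carcinoma, while KLF4 and ZNF750 favor the differentiated layers. TFAP2A and TFAP2C act early in the commitment of surface ectoderm to epidermis, PITX1 is a homeobox factor of oral and hindlimb tissue, RUNX1 is found in epithelial progenitors as well as in blood, and TP73 is a relative of TP63. These 10 genes were taken by name from a table of 58884 genes, and all 10 were found in it.

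The RNA came from SAS cells, human cells grown from a squamous carcinoma of the tongue. The shKDM4C cells carried a lentiviral hairpin against KDM4C, a histone H3 lysine 9 demethylase, and are labelled as a KDM4C knockdown, and the LKO cells held the pLKO.1 vector as control and are labelled wild type. Both were selected with puromycin, and each condition was sequenced as 1 library from 1 culture, so a difference between the libraries has no replicate check, and effects of KDM4C loss, of the hairpin and of the culture cannot be told apart. The sources used here do not name which of the study's KDM4C hairpins the sequenced cells carried. The comparison asks how the level of each factor differed once KDM4C was depleted.

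The libraries held 50627096 counts for shKDM4C and 57626616 for LKO. KDM4C itself had 242 counts in shKDM4C against 1047 in LKO, so that 27.8% of the LKO level remained. Levels are given in CPM (reads per 1000000 of the library size after TMM scaling). Differences are log2 ratios of shKDM4C over LKO, for which 0.5 was added to each count, and each has an exact (Clopper-Pearson) 95% interval that covers counting error only. The 18078 genes that reached 20 counts when both libraries were summed were tested against a threshold of 1.5-fold, and those past it were called unless the interval held 0.

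The factors split into 3 groups of similar size. In the shKDM4C library TP63, TP73 and ZNF750 were lower, KLF4, KLF5 and SOX2 were higher, and TFAP2A, TFAP2C, PITX1 and RUNX1 were called in neither direction. All 10 reached 20 counts. Across all genes tested 15.7% were called lower and 13.0% higher, against 3 of 10 factors in each direction, and with 10 genes a difference of 1 or 2 calls closes that gap. The median log2 ratio was 0.034 for the 10 factors and -0.0094 over all genes tested, so the factors had no common direction.

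**Figure D1:**
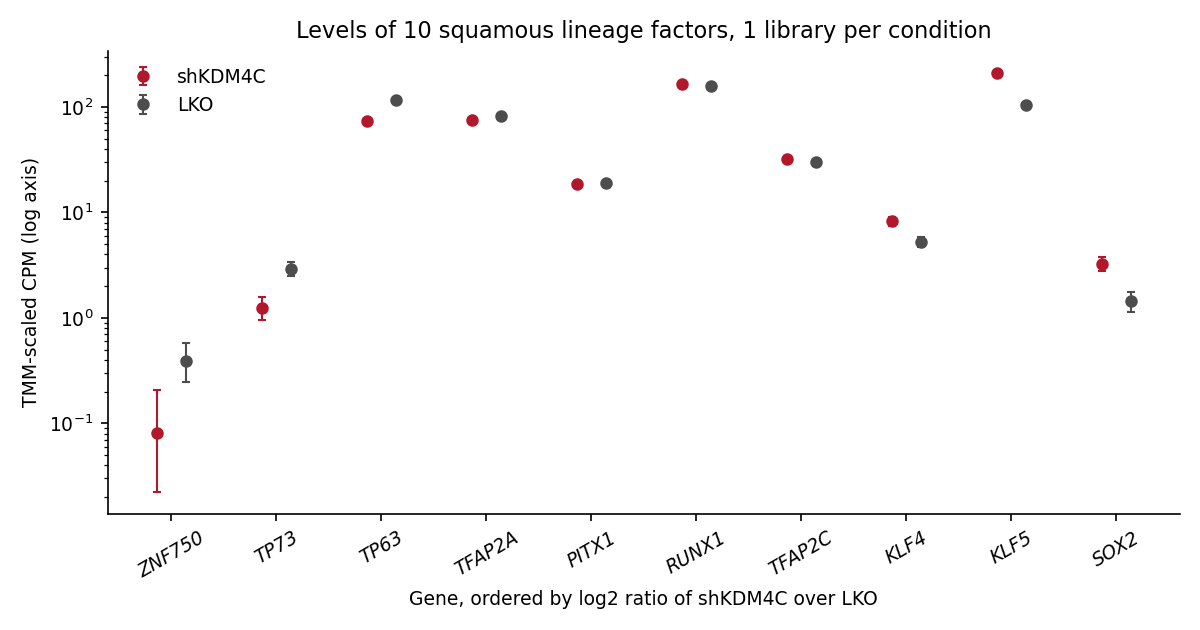
Level of each of the 10 factors in the shKDM4C library (red, left of each pair) and in the LKO library (grey, right), in TMM-scaled CPM on a log axis, with bars for the 95% Poisson counting interval and genes ordered by their log2 ratio. The pairs of ZNF750, TP73 and TP63 at the left have the red point below the grey one, those of KLF4, KLF5 and SOX2 at the right have it above, and ZNF750 is the lowest gene of all, with 4 and 23 counts.

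TP63, the factor that keeps basal squamous cells in their lineage, had 3598 counts in shKDM4C against 6955 in LKO, that is 73.0 against 118 CPM. At 62.1% of the LKO level its log2 ratio came to -0.69 (interval -0.75 to -0.63). The whole interval lay beyond 1.5-fold, and the gene's many reads made it narrow. TP63 is transcribed from an upstream start, which gives the TA forms, and from a later internal start, which gives the ΔN forms that squamous cells mainly use. Of 14 transcripts annotated, 8 start over 50000 bases after the first, and since reads were counted per gene, the forms cannot be told apart here. TP73, which encodes p73, a relative of p63 with its own TA and ΔN forms, had 61 counts in shKDM4C against 173 in LKO, that is 1.24 against 2.92 CPM. Its log2 ratio came to -1.23 (interval -1.69 to -0.81). TP73 thus kept 42.6% of its LKO level, a smaller share than TP63 kept, from far fewer reads.

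The TP73 exons share 633 bases with TP73-AS1 on the other strand, which had 274 counts against 362 and a log2 ratio of -0.14 (interval -0.37 to 0.093). The library kit marks strand, but the strand setting of the counting is not given in the sources used here. A part of the TP73 counts could therefore belong to TP73-AS1, or reads of the shared bases could be missing from both. The TP63 exons share no base with another gene of the table.

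The RefSeq promoter windows (GRCh38.p14, 250 bases before to 50 after a start) of these p53 relatives differ in composition. Both are shown because TP63 and TP73 were lower together. Capitals mark CACCC or GGGCGG on either strand, the box words that KLF and SP factors bind, and in TP73 a CACCC overlaps a GGGCGG match. TP63 lies on the plus strand of chromosome 3 from 189631389 to 189897276, and the window below is that of its upstream start at chr3:189631139-189631438. TP73 lies on the plus strand of chromosome 1 from 3652516 to 3736201, and the window is that of its first start at chr1:3652266-3652565.
TP63: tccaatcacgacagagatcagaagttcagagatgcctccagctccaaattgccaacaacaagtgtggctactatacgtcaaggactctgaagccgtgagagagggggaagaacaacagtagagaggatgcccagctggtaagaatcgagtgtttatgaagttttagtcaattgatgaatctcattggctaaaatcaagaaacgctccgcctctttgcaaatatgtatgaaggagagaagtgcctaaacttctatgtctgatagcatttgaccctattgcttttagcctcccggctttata
TP73: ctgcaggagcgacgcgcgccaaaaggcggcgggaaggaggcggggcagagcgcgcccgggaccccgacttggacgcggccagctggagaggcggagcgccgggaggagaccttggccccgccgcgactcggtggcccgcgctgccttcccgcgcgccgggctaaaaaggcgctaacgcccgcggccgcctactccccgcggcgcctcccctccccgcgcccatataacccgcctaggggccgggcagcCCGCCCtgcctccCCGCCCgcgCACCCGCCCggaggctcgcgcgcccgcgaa

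The TP63 window had 7 CpG dinucleotides and 0 copies of either word, and the TP73 window had 49 CpG, 1 CACCC and 3 GGGCGG. Over the 35116 windows of the table the median was 14 CpG, with 4 and 28 at the quartiles. The TP63 window lay within the quartiles and that of the first TP73 start above them, while windows at later TP73 starts had 15 and 11 CpG. The start of the ΔN forms of TP63 was not analysed here.

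SOX2, an SRY-box factor of foregut and oral progenitors that is gained in many squamous carcinomas, was low in both libraries. It had 161 counts in shKDM4C and 85 in LKO, at 3.27 and 1.44 CPM. It was 2.27-fold higher in shKDM4C, for a log2 ratio of 1.18 (interval 0.80 to 1.58). SOX2-OT, a noncoding RNA on the same strand whose intron holds SOX2, had 20 counts against 10 and a log2 ratio of 1.23 (interval 0.10 to 2.52). Its exons share no base with SOX2. SOX2 lies on the plus strand of chromosome 3 from 181711925 to 181714436, on the same chromosome arm as TP63, which was lower. Its window at chr3:181711675-181711974 is shown with those of KLF4 and KLF5, the other factors that were higher.

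KLF5, a zinc finger factor of proliferating basal cells, had the highest count of the 10 factors in the shKDM4C library. It had 10435 counts in shKDM4C and 6147 in LKO, at 212 and 104 CPM, and was 2.04-fold higher, for a log2 ratio of 1.03 (interval 0.98 to 1.07). KLF4, its relative that favors differentiation and belongs to the set of factors that reprogram cells to pluripotency, had 409 counts in shKDM4C and 310 in LKO, at 8.30 and 5.24 CPM. It was 1.58-fold higher, for a log2 ratio of 0.66 (interval 0.45 to 0.88), an interval that reached below 1.5-fold. KLF4 was thus the called factor closest to the threshold on the higher side, as TP63 was on the lower side.

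KLF5 lies on the plus strand of chromosome 13 from 73054976 to 73077541, and its window at chr13:73058755-73059054 is that of the start of the Ensembl canonical transcript. On chromosome 9, KLF4 runs along the minus strand from 107484852 to 107490482, and its window at chr9:107489720-107490019 is that of its canonical start. The capitals have the same meaning as above.
KLF5: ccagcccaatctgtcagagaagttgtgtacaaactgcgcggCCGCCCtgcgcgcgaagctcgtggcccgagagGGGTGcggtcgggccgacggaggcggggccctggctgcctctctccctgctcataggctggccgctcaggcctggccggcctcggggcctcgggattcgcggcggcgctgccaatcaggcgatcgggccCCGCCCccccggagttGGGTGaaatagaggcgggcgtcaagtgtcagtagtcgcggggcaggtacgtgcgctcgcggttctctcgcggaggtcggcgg
KLF4: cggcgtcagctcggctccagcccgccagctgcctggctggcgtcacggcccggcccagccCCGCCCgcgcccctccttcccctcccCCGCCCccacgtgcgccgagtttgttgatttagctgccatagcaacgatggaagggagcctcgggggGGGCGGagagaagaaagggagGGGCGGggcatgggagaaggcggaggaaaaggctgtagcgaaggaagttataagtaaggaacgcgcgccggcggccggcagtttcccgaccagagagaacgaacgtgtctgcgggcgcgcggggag
SOX2: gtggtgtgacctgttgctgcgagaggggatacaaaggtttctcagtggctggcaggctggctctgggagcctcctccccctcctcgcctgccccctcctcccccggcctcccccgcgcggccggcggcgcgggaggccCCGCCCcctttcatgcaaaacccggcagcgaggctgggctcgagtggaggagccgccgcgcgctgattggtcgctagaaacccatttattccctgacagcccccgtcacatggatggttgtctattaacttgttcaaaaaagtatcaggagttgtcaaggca

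These starts had 37 CpG in KLF5 and 33 in KLF4, above the upper quartile of all windows, and 20 in SOX2, within the quartiles. A second KLF5 window, at its first annotated start, had 4 CpG. Among the factors not called, the PITX1 window, at its canonical start, had 35 CpG. The RUNX1 window lay at another start, 160603 bases from the canonical one, and had 40 CpG. Both TFAP2A windows, 4585 and 2683 bases from its canonical start, had 18. KLF5 held 2 CACCC and 2 GGGCGG words, KLF4 held 0 and 4, and SOX2 held 0 and 1. The table had 12 windows for 8 of the factors. Of these, 9 held CACCC and 7 held GGGCGG on either strand, against 59.9% and 45% of all windows. GATAA is a form of the word bound by GATA1, the factor that the study places beside KDM4C. It or its complement was in 1 of the 12 windows, a later start of TP73, against 22.7% of all windows. Other forms were not counted, such as GATAG, which the TP63 window above holds. Such words describe the sequence and are no evidence of binding.

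The change of KLF5 relative to TP63 needs no scaling of the libraries, since both were counted in each, although it gives the direction of neither gene. There were 2.90 KLF5 counts per TP63 count in shKDM4C and 0.884 in LKO. The quotient of these was 3.28 (95% counting interval 3.12 to 3.45, Woolf method), so the order of the 2 genes by counts turned over between the libraries. For SOX2 the same quotient over TP63 was 3.66 (interval 2.81 to 4.78), from 0.0447 SOX2 counts per TP63 count in shKDM4C and 0.0122 in LKO. KLF5 over KLF4 gave a quotient of 1.29 (interval 1.1 to 1.5), from 25.5 KLF5 counts per KLF4 count in shKDM4C and 19.8 in LKO.

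ZNF750, which represses basal genes and turns on differentiation genes downstream of p63, was nearly absent from both libraries. It had 4 counts in shKDM4C and 23 in LKO, at 0.081 and 0.39 CPM. Its log2 ratio of -2.12 was the most negative of the 10, but its interval from -4.25 to -0.71 was the widest as well. On chromosome 17, ZNF750 runs along the minus strand from 82829434 to 82840022, within TBCD on the other strand, and 222 bases of their exons coincide. TBCD, a tubulin folding cofactor gene, had 1249 counts against 2170 and a log2 ratio of -0.53 (interval -0.63 to -0.43). Reads of the shared exon bases could have been counted for either gene or for neither, so that the few ZNF750 counts are less certain than those of the other factors.

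**Figure D2:**
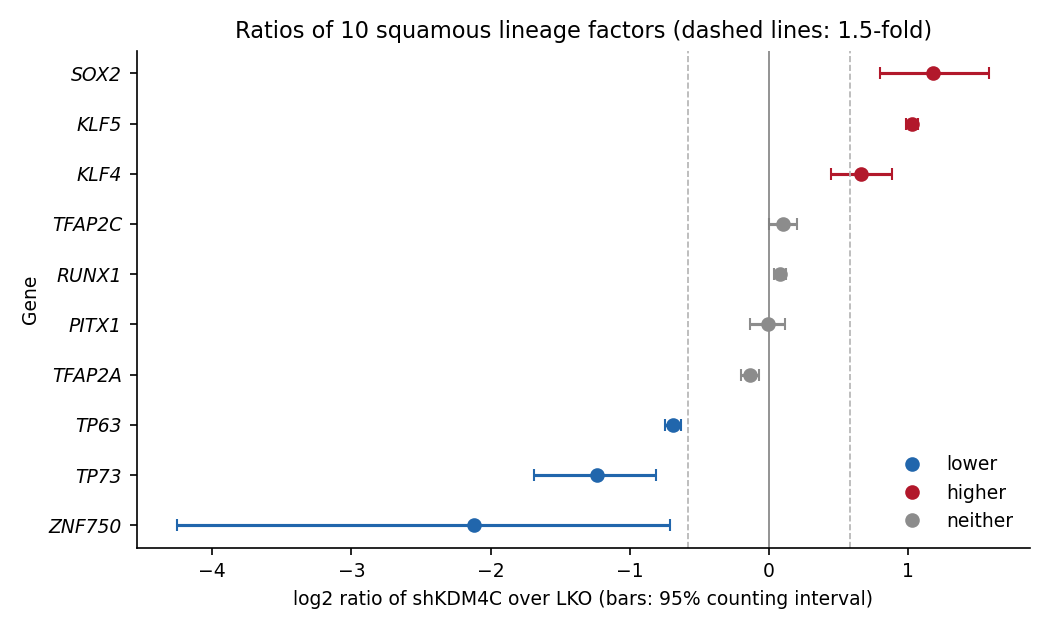
Log2 ratio of shKDM4C over LKO for each of the 10 factors, with bars for the exact 95% counting interval and dashed lines at 1.5-fold. SOX2, KLF5 and KLF4 (red) lie above 0, TP63, TP73 and ZNF750 (blue) below it, and the 4 factors called in neither direction (grey) lie between -0.14 and 0.10.

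The remaining 4 factors had close to the same level in both libraries. RUNX1, which pairs with CBFB to bind DNA, had 8190 counts against 9315, at 166 and 157 CPM, and a log2 ratio of 0.078 (interval 0.035 to 0.12). TFAP2C, an AP-2 factor, had 1589 counts against 1778 and a log2 ratio of 0.10 (interval 0.0033 to 0.20). TFAP2A, the AP-2 factor with more counts in these cells, had 3682 counts against 4859 and a log2 ratio of -0.14 (interval -0.20 to -0.074). PITX1 had 923 counts against 1116, at 18.7 and 18.9 CPM, and a log2 ratio of -0.0099 (interval -0.14 to 0.12). Of these, PITX1 alone had an interval that included no change, and the other 3 differed by less than 1.5-fold throughout their intervals. The interval of TFAP2C began at 0.0033, and scaling by total counts in place of TMM moved the median of all genes by -0.077.

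For the AP-2 pair there were 2.32 TFAP2A counts per TFAP2C count in shKDM4C and 2.73 in LKO, a quotient of 0.848 (interval 0.783 to 0.919) that lay below 1. The TFAP2A exons share 941 bases with TFAP2A-AS2 and 438 with TFAP2A-AS1 on the other strand. TFAP2A-AS2 had 125 counts against 128 and TFAP2A-AS1 had 54 against 37, few beside those of TFAP2A. TFAP2A lies on chromosome 6 from 10393186 to 10419659 on the minus strand and TFAP2C on chromosome 20 from 56629306 to 56639283 on the plus strand. Of the other pair, RUNX1 spans chromosome 21 from 34787801 to 36004667 and PITX1 chromosome 5 from 135027734 to 135034813, both on the minus strand.

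Per kilobase of annotated exon, KLF5 stood first in both libraries, at 57.5 CPM per kb in shKDM4C and 28.2 in LKO. In LKO it was followed by TP63 at 15.7, RUNX1 at 10.1, TFAP2C at 10.0 and TFAP2A at 9.99. In shKDM4C these 4 lay between 9.09 and 10.7 CPM per kb, with TP63 at 9.76. Their order among themselves depended on the length used, since TP63 came below KLF5, RUNX1 and TFAP2A in both libraries when the length of the canonical transcript replaced that of all exons, an alternative chosen after seeing the data. PITX1 was sixth at 5.44 against 5.48. KLF4 at 2.27 against 1.43, SOX2 at 1.30 against 0.57, TP73 at 0.18 against 0.43 and ZNF750 at 0.026 against 0.12 took the last 4 places in both libraries and with either length.

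Hairpins can lower other transcripts through short matches in 3′ UTRs. Words of 7 bases that pair with guide positions 2 to 12, 5 for each hairpin, were searched in canonical 3′ UTRs. For shKDM4C#1, TP63 and RUNX1 each held 1, and TP73 and TFAP2C each held 2, which is 4 of the 10 factors against 17.5% of 13225 genes searched. For shKDM4C#2, TP73 and SOX2 each held 1, against 10.5% of genes. A longer 3′ UTR has more room for such words, and these shares were not matched for length. The 3′ UTRs of RUNX1, TP73, TP63 and TFAP2C had 4334, 3122, 2774 and 1270 bases. The part of such matches in the differences was not tested.

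Family relatives of the factors were compared next, from a list of 41 genes of which 22 could be tested. The calls were 4 lower and 3 higher, around a median log2 ratio of 0.078. The shares of all genes called, which apply beside this list and the later ones, were 15.7% lower and 13.0% higher. Within the KLF family, members and relatives together, 5 of 13 tested genes were higher and 1 was lower, beside those shares of all genes. Besides KLF4 and KLF5 the higher ones were KLF10, a TGF-beta-induced gene, with 8063 counts against 3662 and a log2 ratio of 1.40 (interval 1.35 to 1.46), and KLF2 and KLF9, both with under 50 counts in either library. With a 99% interval, or with at least 200 counts required, KLF2 and KLF9 lost their calls and KLF10 was the 1 relative left on the higher side. KLF8 went the other way at -1.31 (interval -1.71 to -0.94), with 77 counts against 230. KLF6, with 8828 counts against 9495, had a log2 ratio of 0.16 and was not called.

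In the SOX family, SOX2 was the only higher gene of 8 tested. SOX12 at -0.74 (interval -0.95 to -0.54) and SOX6 at -0.68 (interval -0.89 to -0.49) were lower, and SOX9, SOX7, SOX15, SOX13 and SOX4 were not called. In the RUNX family the paralogs parted. RUNX2, known as the master factor of bone, had 769 counts against 2347 and a log2 ratio of -1.35 (interval -1.47 to -1.23), whereas RUNX1 was not called. There were 10.7 RUNX1 counts per RUNX2 count in shKDM4C and 3.97 in LKO, and the quotient of these was 2.68 (interval 2.46 to 2.93). RUNX3 had 0 counts in both libraries. TFAP2B was also at 0 in both.

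**Figure D3:**
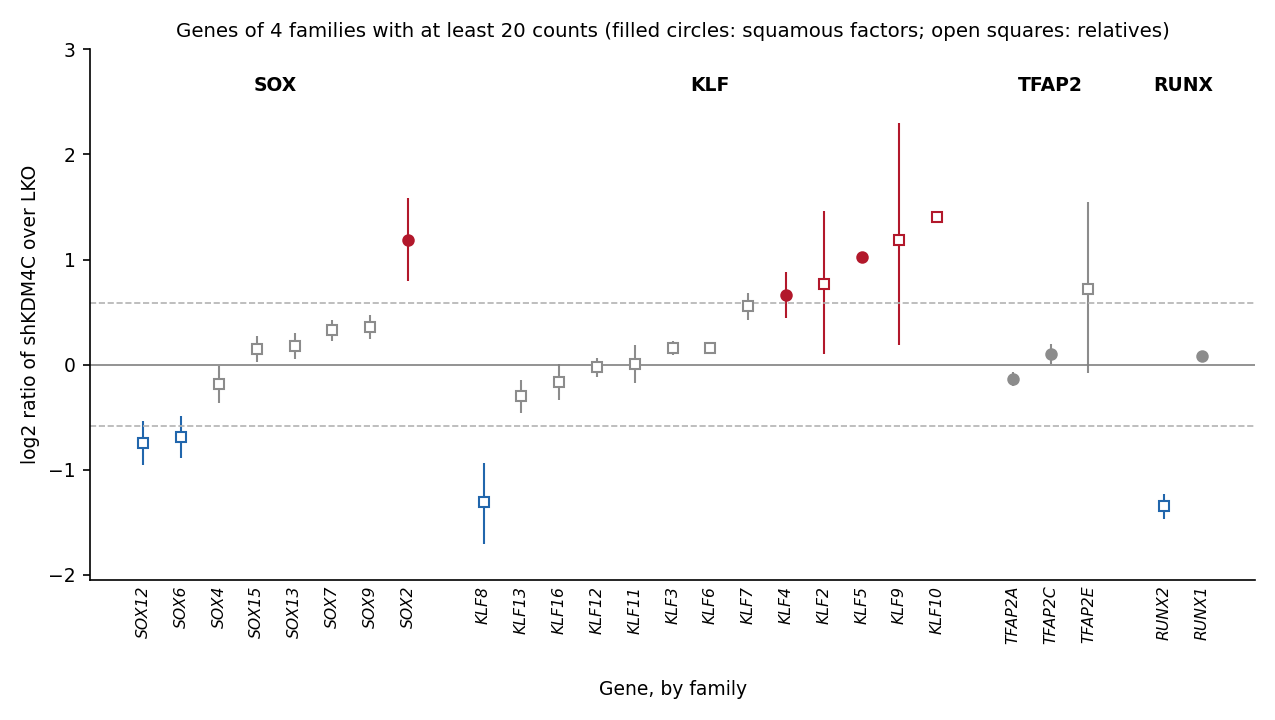
Log2 ratio of shKDM4C over LKO for genes of the SOX, KLF, TFAP2 and RUNX families with at least 20 counts, the factors as filled circles and their relatives as open squares, with bars for the exact 95% counting interval and dashed lines at 1.5-fold. In the KLF group 5 genes are called higher (red) and KLF8 lower (blue), and in the RUNX group RUNX2 is lower while RUNX1 lies at 0.078.

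Cofactors of these proteins, with ubiquitin enzymes that set their stability, differed little. All 18 genes were tested, with 0 lower and 2 higher around a median of 0.15. With total counts in place of TMM 1 was lower and 1 higher. With DESeq2 size factors, or with at least 200 counts required, 3 were higher, and at 2-fold 0 were. CBFB, the partner of RUNX1, had 14813 counts against 11913 and a log2 ratio of 0.58 (interval 0.54 to 0.61), just under the 1.5-fold threshold. FBXW7, which marks KLF5 among other factors for degradation, was 1.66-fold higher, and CITED2, a coactivator of AP-2 factors, was 1.54-fold higher. Of 21 other epithelial transcription factors, 18 were tested, with 2 lower and 3 higher around a median of -0.096. GRHL2, a guardian of epithelial identity, had 4822 counts against 10656 and a log2 ratio of -0.88 (interval -0.93 to -0.83). EHF, an ETS factor of epithelia, had -0.89 (interval -1.06 to -0.72). PRDM1, which encodes BLIMP1, was 4.93-fold higher with 584 counts against 142. OVOL1, a zinc finger factor of epithelial differentiation, was 1.92-fold higher.

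Genes of the basal squamous layer, many of them bound by p63, went both ways. All 30 were tested, and the calls were 8 lower, 4 higher and 18 neither, around a median of -0.069. On the lower side were IGFBP3, an insulin-like growth factor binding protein gene, with 1659 counts against 8297 or 24.0% of LKO, the cadherin gene FAT2 at -1.11 (interval -1.19 to -1.04) and the hemidesmosome integrin gene ITGB4 at -0.91 (interval -0.96 to -0.85). The higher side included LAMB3, which encodes a chain of laminin-332, at 1.71 (interval 1.68 to 1.75), the stress keratin gene KRT6A at 1.04 (interval 0.86 to 1.24) and the Notch ligand gene JAG1. The keratin pair of the basal layer was not called, with 15935 counts against 24147 for KRT5 and 1353 against 1110 for KRT14.

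Genes of the differentiated layers, which KLF4 and ZNF750 favor, were mostly silent. Of 34, only 12 reached 20 counts, and 9 had 0 in both libraries. Among the 12 tested, 3 were lower and 0 higher, around a median of -0.44. With genes of at least 1 count included, 3 were lower and 2 higher around a median of -0.21, the higher ones being SPRR1B and CRNN with 7 counts in shKDM4C and 0 in LKO each. With at least 200 counts 1 was lower, and at 2-fold 0 were. With DESeq2 size factors, or with 5 in place of 0.5 added to each count, 2 were lower. PPL, which encodes periplakin of the cornified envelope, had 2771 counts against 5843 and a log2 ratio of -0.81 (interval -0.88 to -0.75). SCEL, the sciellin gene, had -0.59 (interval -0.77 to -0.42) and was the lower call closest to the 1.5-fold threshold. PADI1 was lower with 52 counts against 122. IVL, which encodes involucrin, had 10 counts against 16.

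**Figure D4:**
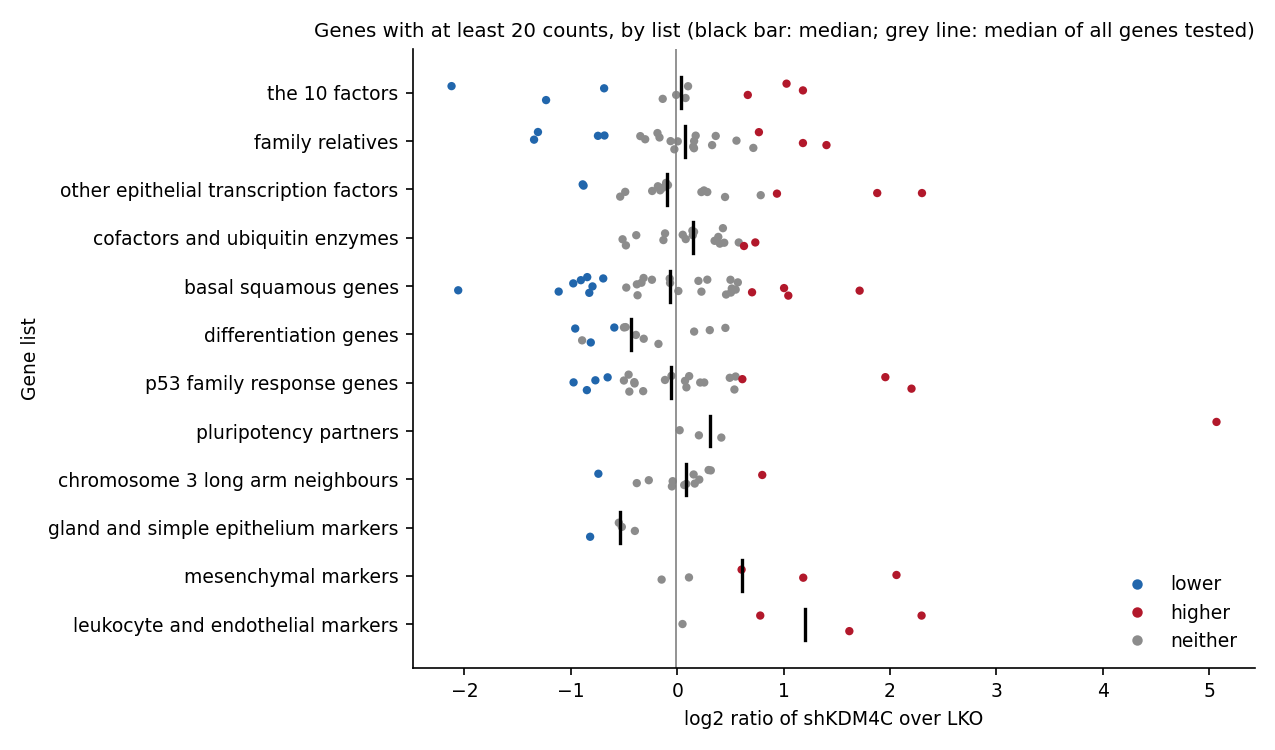
Log2 ratio of shKDM4C over LKO for each gene with at least 20 counts in the 10 factors and 11 companion lists, with a black bar at each list's median and a grey line at the median of all genes tested. The 10 factors and the basal squamous genes spread to both sides with medians of 0.034 and -0.069, while the 12 tested differentiation genes have a median of -0.44.

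The squamous label was checked against defining markers. KRT5 and DSG3 were present at 323 and 24.5 CPM in shKDM4C and at 408 and 39.7 CPM in LKO. DSG3 was lower, with a log2 ratio of -0.70, and KRT5 was not called. KRT14 had 27.4 CPM in shKDM4C and 18.8 in LKO, with a log2 ratio of 0.55, and was not called. KRT6A was higher, at 12.6 CPM in shKDM4C and 6.12 in LKO, with a log2 ratio of 1.04. TP63, also a defining marker, was lower as given above. The line also held keratins of simple epithelium. Of 10 markers of gland and simple epithelium 4 were tested, with 1 lower and 0 higher around a median of -0.53. With total counts in place of TMM 3 were lower. The list summed to 2394 CPM in shKDM4C and 3500 CPM in LKO. KRT7 was lower, at 535 CPM in shKDM4C and 943 CPM in LKO, and KRT8 had 1106 and 1457 CPM, while CDX2 and TFF1 were at 0 in both libraries. Of 9 mesenchymal markers 5 were tested, with 0 lower and 3 higher around a median of 0.60, and the list summed to 156 CPM in shKDM4C and 71.9 CPM in LKO. ZEB1, a repressor of epithelial genes, was 4.17-fold higher, and VIM, the vimentin gene, was 2.27-fold higher. COL1A1, a collagen gene of fibroblasts, was higher with 123 counts against 97, close to the 1.5-fold threshold, and COL3A1 and DCN had at most 2 counts. TWIST1 was not called, with 276 counts against 367 and a log2 ratio of -0.15. PDGFRB was not called either, with 151 counts against 168 and a log2 ratio of 0.11. With total counts in place of TMM, or with genes of at least 1 count included, 2 mesenchymal markers were higher. Of 8 leukocyte and endothelial markers 4 were tested, and CDH5, PECAM1 and VWF were higher with at most 67 counts each, in a list that summed to 4.16 CPM in shKDM4C and 1.57 CPM in LKO, with a median of 1.20. CD3E was at 0 in both. The part of these shifts in the levels of the 10 factors was not tested, and in bulk RNA fewer cells of a type and less RNA per cell cannot be told apart.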

How the data were processed

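The authors extracted total RNA, made libraries with a kit that selects mRNA and marks strand and, per the submitters' processing notes and the methods, trimmed reads with Trimmomatic, aligned them to GRCh38 with HISAT2 and counted them with featureCounts. Versions, gene annotation and strand setting were not found in the sources used here. The deposited table holds raw read counts of 58884 genes in 2 libraries, and a second set of tables holds the authors' own comparison (CPM, fold changes and p-values), which was not used. Symbols and exon lengths came from GENCODE v44, which names 58472 of the gene IDs, and promoter sequences from RefSeq (GRCh38.p14).

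The 18078 genes that reached 20 counts summed over the libraries hold 99.9% of each library's counts. Library sizes were scaled with TMM in edgeR 4.0.16 (factors 0.974 for shKDM4C and 1.03 for LKO) under R 4.3.3, and ratios and intervals were computed in Python 3.11.15 with scipy 1.17.1. Since each condition had 1 library, conditions were not tested against each other and no p-value was computed. Counting intervals treat reads as independent molecules, which PCR copies are not. The procedure was run on simulated Poisson counts with known changes. These hold counting error only, as the intervals assume, so the run cannot speak to variation between cultures or libraries. Alternatives were total counts, DESeq2 1.42.0 size factors, other count filters, 5 in place of 0.5 added to each count, a 99% interval or none, and a 2-fold threshold.

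The 10 factors and the 11 companion lists were chosen with earlier results of these data known. Of each companion list, up to 3 genes called lower and 3 called higher with a mean of at least 100 counts were named, ranked by the interval bound nearest to 0, with RUNX2, RUNX3 and CBFB, defining cell type markers and genes overlapping a factor. KLF2, KLF6, KLF9, SOX4, SOX6, SOX7, SOX9, SOX13, SOX15, TFAP2B, JAG1, PADI1, IVL, SPRR1B, CRNN, MYC and SALL4 were named after their values were seen. Some genes of the lists are not reported here.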

Additional observations from a re-analysis of the deposited data

How the results depend on the processing

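The calls of the 10 factors were the same under total counts, DESeq2 size factors, a filter of at least 1 count, a prior count of 5, a 99% interval and no interval. At a 2-fold threshold TP63 and KLF4 lost their calls, and with at least 200 counts ZNF750 was not tested. Medians near 0 changed sign. With total counts that of the 10 factors was -0.043 and that of the companion genes -0.025. With at least 200 counts the family relatives had -0.0071 and the p53 family response genes 0.029. The median of all genes was 0.0016 with DESeq2 size factors, 0.059 with at least 1 count and 0.000895 with a prior count of 5. Of the companion genes, 23 were lower and 23 higher, beside 15.7% lower and 13.0% higher of all genes tested. At 2-fold 4 companion genes were lower and 14 higher. Over all genes 2840 were lower and 2358 higher, with at least 200 counts 1664 and 1053, and at 2-fold 1348 and 1404, as fewer genes are tested or pass. The depth limits ZNF750, TP73 and SOX2, whose intervals are the widest of the 10. No paired analysis was possible because there was 1 library per condition, and for the same reason no replicate could be left out.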

Other observations

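Response genes shared by the p53 family were called in both directions, at shares near those of all genes. All 23 genes were tested, and in shKDM4C 4 were lower and 3 higher, around a median log2 ratio of -0.054. Over all genes tested 15.7% were lower and 13.0% higher. The DNA repair genes DDB2 at -0.97 (95% counting interval -1.16 to -0.79) and XPC at -0.85 (interval -0.96 to -0.74) and the cyclin gene CCNG1 at -0.77 (interval -0.82 to -0.72) were lower. PMAIP1, which encodes the death-promoting protein NOXA, was 4.60-fold higher with 10932 counts against 2853, GADD45A, a growth arrest gene, was 3.88-fold higher, and the death receptor gene TNFRSF10B was 1.53-fold higher.

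Of 10 pluripotency partners of SOX2 and KLF4, 4 were tested, with a median of 0.31, 0 lower and 1 higher. This was LIN28A, with 209 counts against 7 and a log2 ratio of 5.07 (interval 4.10 to 6.50). MYC had 11106 counts against 10006 and SALL4 had 93 against 110, and neither was called. Of 13 genes on the long arm of chromosome 3, which also carries TP63 and SOX2, 1 was lower and 1 higher. Their median was 0.085, and over all genes tested 15.7% were lower and 13.0% higher. CLDN1, a tight junction gene, had a log2 ratio of -0.74 (interval -0.76 to -0.72). TBL1XR1, a corepressor subunit gene, had 0.80 (interval 0.77 to 0.82).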
